A study of Homo sapiens with 12 samples.

Results

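Nascent RNA from 9 genes that encode R-loop resolving factors was followed in human osteosarcoma cells after knockdown of INTS11, the RNA-cutting subunit of the Integrator complex. The genes were taken by symbol from the 60583 genes of the count tables: RNASEH1, RNASEH2A, RNASEH2B, RNASEH2C, AQR, DHX9, DDX5, TOP1 and THOC1. RNASEH1 was listed at 0 reads in every library, and the other 8 had reads. The assay was TT-seq, in which RNA made during a short 4-thiouridine pulse is fragmented, captured and sequenced.

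The 12 libraries formed 4 groups of 3. Parental U2OS cells were transfected with a control siRNA (siCtrl) or with siINTS11 and collected 48 h later, and the labels give them no drug. U2OS-AsiSI cells had the same siRNAs and the same 48 h, and each of their groups was also exposed to 4-hydroxytamoxifen (OHT) for 1 h, also under siCtrl. OHT lets the AsiSI-ER fusion, a restriction nuclease joined to an oestrogen receptor domain, enter the nucleus and cut at its sites. Line, nuclease and OHT therefore differ together between the 2 lines and cannot be told apart. Whether U2OS-AsiSI is 1 clone, and whether replicates are separate cultures, is not given in the sources used here, so p-values measure the spread between these libraries only.

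R-loops form when a transcript pairs again with the DNA template behind RNA polymerase, leaving the other DNA strand single. Cells limit them at 3 levels: RNase H enzymes cut the RNA of the hybrid, helicases unwind it, and topoisomerase I and the THO complex hinder its formation by relaxing negative supercoils and by packing the nascent RNA into particles. In dividing cells, loss of any of these activities is known to raise replication stress and DNA breaks.

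Depth ran from 20704611 to 38065726 reads per library. Within each of the 4 groups the replicates varied beyond sampling noise (chi-square per degree of freedom 2.11 to 3.10), so each library counted as 1 sample. Nascent RNA of INTS11 itself was 10.1, 8.88 and 10.1 CPM (read counts scaled to library size) for siCtrl in U2OS, beside 7.86, 7.07 and 7.19 for siINTS11, a log2 fold change of -0.42 ± 0.09 (SE, adjusted p = 6.08e-05). U2OS-AsiSI had 9.64, 11 and 9.83 CPM with siCtrl, and 9.01, 9.33 and 9.49 with siINTS11 (-0.13 ± 0.08, adjusted p = 0.172). An siRNA acts mainly on mature mRNA, which these libraries sample little, so this is a weak check of the labels. Of 9 osteoblast lineage markers, RUNX2, COL1A1 and SPARC were abundant (lowest library 3486, 1929 and 4772 reads) and BGLAP was at 0 in all libraries. Their summed level was 770 to 798 CPM in U2OS siCtrl, 513 to 555 in U2OS siINTS11, 623 to 648 in U2OS-AsiSI siCtrl and 433 to 466 in U2OS-AsiSI siINTS11, a sum that RUNX2 dominates. Of 5 tested markers 4 passed in U2OS-AsiSI, 2 higher and 2 lower, and 5 in U2OS, 2 higher and 3 lower. Over all genes 68.0% passed in U2OS-AsiSI (35.4% higher and 32.6% lower) and 66.9% in U2OS (34.5% higher and 32.4% lower). RUNX2 fell (-1.07 ± 0.05 in U2OS-AsiSI and -0.84 ± 0.04 in U2OS), while ALPL rose (1.31 ± 0.11 and 1.47 ± 0.12), as did SPP1 (2.14 ± 0.27 and 2.41 ± 0.26). The 2 endothelial markers rose in both lines (summed 1.76 to 2.33 CPM under siCtrl and 5.50 to 6.87 under siINTS11), the 2 epithelial markers, summing to 10.1 to 14.4 CPM, passed in U2OS and not in U2OS-AsiSI, and the 3 blood markers stayed at 0 to 7 reads. In bulk RNA fewer cells of a type and less RNA per cell cannot be told apart, and the part of these shifts in the results was not tested.

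What the tables can show of each gene depends on its neighbours. Counts cover the whole gene span, introns included, and all 9213 genes whose span is wholly covered by other genes on the same strand were at 0 in every library, also the 1093 of them spanning at least 5 kb. Genes of at least 5 kb wholly covered by genes of the other strand alone were at 0 about as often (9.3%) as genes overlapping none (8.1%). Bases shared on a strand thus carried no counts, while the strands were kept apart, and levels below are given per kb of unshared span.

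RNASEH1, the single-subunit enzyme that cuts the RNA of an R-loop, lies on chromosome 2 from 3541430 to 3558333 on the minus strand (hg38, as are all coordinates of the tables). AC108488.2, a longer gene of the same strand from 3532008 to 3558333, covers all 16904 bases of that span. The 0 of RNASEH1 is therefore no measure of its transcription, and no fold change can be given. Its pseudogenes RNASEH1P1 and RNASEH1P2 had 0 to 2 reads. The 4556 unshared bases of AC108488.2 all lie outside the RNASEH1 span and held 60 to 144 reads a library. They gave a log2 fold change with siINTS11 of -0.43 ± 0.13 in U2OS-AsiSI (adjusted p = 0.0052) and -0.10 ± 0.13 in U2OS (adjusted p = 0.50). By library totals alone the call in U2OS-AsiSI was lost (-0.24, adjusted p = 0.123).

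RNASEH1-AS1, a separate gene whose reads do not measure RNASEH1, starts 141 bp from the RNASEH1 start, on the plus strand. THOC1 has a partner of the same kind, AP000845.1, which starts 98 bp away. Both start regions are printed here because the 2 partners rose while their R-loop genes could not be read or moved little. Each sequence runs 5′ to 3′ on the strand of the R-loop gene (minus in both cases) from 250 bases before to 50 after its RefSeq start, and capitals mark the bases from the start of the partner to the start of the R-loop gene in the tables.
RNASEH1 (chr2:3558284-3558583): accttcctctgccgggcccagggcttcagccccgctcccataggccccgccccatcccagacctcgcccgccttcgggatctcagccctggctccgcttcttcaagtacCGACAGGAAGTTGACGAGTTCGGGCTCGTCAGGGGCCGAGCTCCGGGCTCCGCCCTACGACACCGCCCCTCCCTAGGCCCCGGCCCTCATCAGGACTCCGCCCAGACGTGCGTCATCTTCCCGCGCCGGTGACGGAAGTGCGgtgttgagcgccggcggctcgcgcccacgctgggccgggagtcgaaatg
THOC1 (chr18:267998-268297): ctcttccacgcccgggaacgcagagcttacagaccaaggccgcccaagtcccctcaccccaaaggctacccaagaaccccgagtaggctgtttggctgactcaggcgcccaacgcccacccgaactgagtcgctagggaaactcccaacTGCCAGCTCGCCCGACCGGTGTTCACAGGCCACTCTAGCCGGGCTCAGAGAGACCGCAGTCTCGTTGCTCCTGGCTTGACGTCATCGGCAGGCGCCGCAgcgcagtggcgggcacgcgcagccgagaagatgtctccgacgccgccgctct
The capitals span 142 bases at RNASEH1 and 99 at THOC1. RefSeq (GRCh38.p14) promoters of this length were matched for 9 of the 9 genes, with 12 entries in all because RNASEH2B has 2 and DDX5 has 3. The RNASEH1 window has a G+C content of 70.3% with 33 CG steps, and that of THOC1 65.7% with 28, against medians of 58.7% and 14 over all 34796 promoters. The letters GGGCGG, searched on both strands, occur 4 times at RNASEH1 and once at THOC1, and 44.9% of all promoters hold them. CCAAT (34.6% of all promoters) and TATAAA (11.6%) occur in neither window.

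RNASEH1-AS1 was 4.61, 4.95 and 5.12 CPM in U2OS-AsiSI siCtrl and 8.49, 8.06 and 8.63 under siINTS11. In U2OS it was 3.68, 3.53 and 3.74 under siCtrl and 7.80, 7.16 and 6.77 under siINTS11. The siRNA groups did not overlap in either line, and the gene rose in both, by 0.79 ± 0.10 on the log2 scale in U2OS-AsiSI (adjusted p = 1.84e-08) and by 0.96 ± 0.10 in U2OS (adjusted p = 8.04e-11). AP000845.1 was 3.36, 3.45 and 4.31 CPM in U2OS-AsiSI siCtrl and 4.89, 5.37 and 5.48 under siINTS11. It was 2.99, 3.34 and 2.72 CPM in U2OS siCtrl and 4.17, 3.66 and 4.22 under siINTS11. This partner of THOC1 also rose in both lines without overlap (0.51 ± 0.12, adjusted p = 0.000343, and 0.38 ± 0.12, adjusted p = 0.00719).

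Per kb of unshared span, the 8 genes with reads kept much the same order in the 4 groups (level in RPKM, that is CPM per kb, scaled with TMM factors). In U2OS siCtrl the helicase DDX5 stood at 9.83 ± 0.451 (SD, n = 3), the helicase DHX9 at 6.46 ± 0.117 and topoisomerase TOP1 at 3.63 ± 0.0936. RNASEH2C followed at 2.32 ± 0.0769, THOC1 at 1.56 ± 0.0522 and AQR at 1.26 ± 0.041. The other RNase H2 subunits were lowest, RNASEH2B at 0.499 ± 0.00735 and RNASEH2A at 0.276 ± 0.0582. The RNASEH2A level rests on 12 to 14 reads a library from 1620 unshared bases, 18.7% of its span. DDX5 was thus 19.7 times as high per kb as RNASEH2B. The ranges of neighbours in the order did not overlap in any of the 4 groups. In U2OS siINTS11 the gap was narrow, with RNASEH2A up to 0.41 and RNASEH2B from 0.413. The order was the same in U2OS siINTS11 and in U2OS-AsiSI siCtrl. In U2OS-AsiSI siINTS11 RNASEH2C, at 3.95 ± 0.276, stood above TOP1, at 3.41 ± 0.106.

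**Figure D1:**
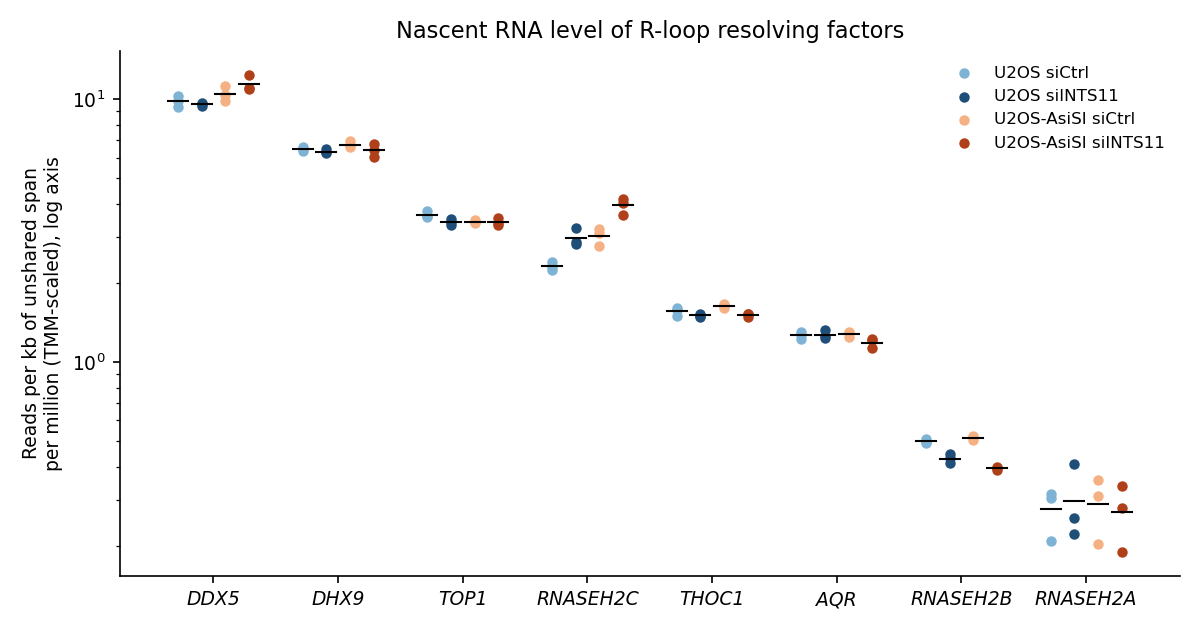
Nascent RNA level of the 8 R-loop genes with reads in each of the 12 libraries, in RPKM of unshared span (log axis). Points are libraries, colours the 4 groups and short lines the group means (n = 3). DDX5, near 10, is highest, and RNASEH2C stands above TOP1 in U2OS-AsiSI siINTS11. RNASEH2A, near 0.3 and with the widest scatter, is lowest, on few reads from 18.7% of its span.

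Across the 8 genes, siINTS11 left most levels close to their siCtrl value. In U2OS-AsiSI 4 of 8 passed the test, 2 higher and 2 lower, where 68.0% of all 20441 genes tested passed (35.4% higher and 32.6% lower). In U2OS 3 of 8 passed, 1 higher and 2 lower, where 66.9% of 20687 genes passed (34.5% higher and 32.4% lower). The median log2 fold change of the 8 was -0.07 in U2OS-AsiSI and -0.06 in U2OS, beside 0.03 and 0.02 over all genes. RNASEH2B fell and RNASEH2C rose in both lines. These counts rest on TMM scaling. With library totals alone the median of all genes shifted to 0.22 in each line. Of all calls 72.4% and 74.3% were then higher, instead of 52.1% and 51.6%. In that setting 6 of the 8 genes passed in each line, 5 higher in U2OS-AsiSI and 6 higher in U2OS. Over all genes 14574 of 20441 passed in U2OS-AsiSI and 14767 of 20687 in U2OS. Without U2OS-AsiSI siCtrl replicate 2 the count in U2OS-AsiSI was 2 of 8, where 13094 of 20885 genes passed. Without U2OS-AsiSI siINTS11 replicate 2 it was also 2 of 8, where 13141 of 20824 genes passed. Without U2OS siINTS11 replicate 1 the count in U2OS was 2 of 8, where 13066 of 21019 genes passed.

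**Figure D2:**
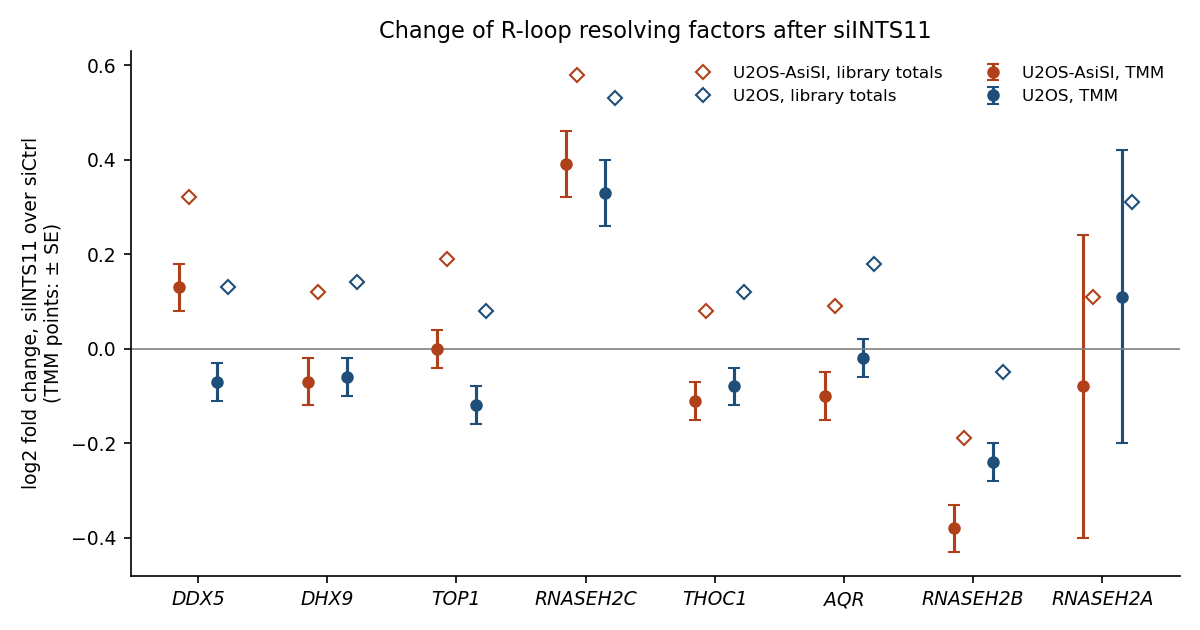
Log2 fold change of each gene, siINTS11 over siCtrl, in U2OS-AsiSI (red) and U2OS (blue). Filled points are the TMM-scaled estimates with their SE, and open diamonds the estimates with library totals alone, which lie about 0.2 higher for every gene. RNASEH2C is above 0 under both scalings, RNASEH2B below 0, and RNASEH2A has SEs of 0.32 and 0.31.

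RNase H2 is the enzyme that removes single ribonucleotides from DNA as well as the RNA of hybrids. Its catalytic subunit is encoded by RNASEH2A and its accessory subunits by RNASEH2B and RNASEH2C. The 2 accessory subunit genes moved in opposite directions after siINTS11.

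RNASEH2B (chromosome 13, 50909747 to 51024120, plus strand, 114.4 kb) was 60.0, 59.3 and 57.9 CPM in U2OS-AsiSI siCtrl and 45.4, 44.6 and 45.5 under siINTS11. U2OS libraries gave 56.8, 58.1 and 56.5 CPM under siCtrl and 51.0, 47.2 and 49.3 under siINTS11. Every siINTS11 library was below every siCtrl library in both lines. The gene fell by 0.38 ± 0.05 on the log2 scale in U2OS-AsiSI (adjusted p = 3.53e-08), to 0.768 of its siCtrl level, and by 0.24 ± 0.04 in U2OS (adjusted p = 6.39e-06), to 0.844. The call held in 14 of 14 alternatives in U2OS-AsiSI and in 13 of 14 in U2OS. With library totals alone the change in U2OS was -0.05 (adjusted p = 0.397), and in U2OS-AsiSI it was -0.19.

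RNASEH2C (chromosome 11, 65714005 to 65720818, minus strand, 6.8 kb) was 18.8, 21.1 and 21.8 CPM in U2OS-AsiSI siCtrl and 24.8, 28.5 and 27.5 under siINTS11. The parental line had 15.3, 16.3 and 15.7 CPM under siCtrl and 22, 19.2 and 19.5 under siINTS11. Here every siINTS11 library was above every siCtrl library. The gene rose by 0.39 ± 0.07 on the log2 scale in U2OS-AsiSI (adjusted p = 4.81e-06), 1.31-fold, and by 0.33 ± 0.07 in U2OS (adjusted p = 3.33e-05), 1.26-fold. Both calls held in 14 of 14 alternatives. KAT5, an acetyltransferase gene on the other strand, covers 82.2% of the RNASEH2C span, and it was at 0.01 ± 0.07 in U2OS-AsiSI (adjusted p = 0.943) and fell by 0.35 ± 0.07 in U2OS (adjusted p = 2.03e-05). By library totals alone KAT5 was at -0.15 in U2OS (adjusted p = 0.0647) and at 0.20 in U2OS-AsiSI (adjusted p = 0.0228).

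The ratio of RNASEH2C to RNASEH2B reads needs no scaling between libraries. It was 0.314, 0.357 and 0.377 in U2OS-AsiSI siCtrl and 0.547, 0.638 and 0.603 under siINTS11. In U2OS it was 0.270, 0.281 and 0.278 under siCtrl and 0.432, 0.407 and 0.396 under siINTS11. The groups did not overlap, and the geometric mean ratio was 1.71-fold higher in U2OS-AsiSI and 1.49-fold higher in U2OS. The two-sided exact permutation test gave p = 0.1 in each line, the smallest that 3 libraries against 3 allow. The 2 genes had already been called in opposite directions in the same libraries, so the raised ratio is no separate support. The part of gene span in the ratio was not tested.

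**Figure D3:**
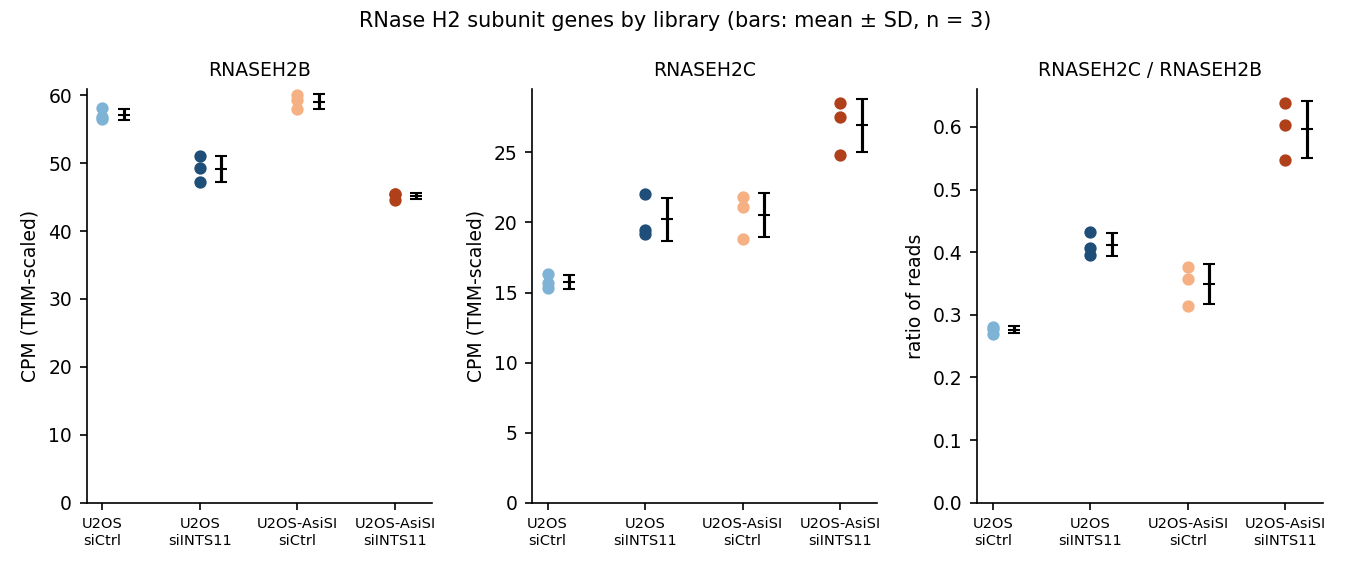
RNASEH2B and RNASEH2C in CPM (TMM-scaled) and the ratio of their reads, by library. Points are libraries and bars the mean ± SD (n = 3) of each group. In both lines the siINTS11 libraries lie below siCtrl for RNASEH2B and above it for RNASEH2C and for the ratio, which reaches 0.638.

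RNASEH2A (chromosome 19, 12806556 to 12815201, plus strand) was barely readable. THSD8, on the same strand, covers all but 1620 of its 8646 bases, so 18.7% of the span is unshared. It held 14, 12 and 14 reads in U2OS siCtrl, 22, 11 and 13 in U2OS siINTS11, 17, 16 and 9 in U2OS-AsiSI siCtrl and 13, 7 and 16 in U2OS-AsiSI siINTS11. All groups overlapped. The log2 fold changes, -0.08 ± 0.32 in U2OS-AsiSI (adjusted p = 0.843) and 0.11 ± 0.31 in U2OS (adjusted p = 0.768), leave room for changes in either direction, so a difference was not detectable at this depth.

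Of the 3 helicases, none kept the same call across the alternatives. AQR, a helicase of the spliceosome that binds introns (chromosome 15, 34851782 to 34969742, minus strand, 118.0 kb), was 153, 147 and 152 CPM in U2OS-AsiSI siCtrl and 144, 143 and 133 under siINTS11. The groups did not overlap, but the change of -0.10 ± 0.05 missed the threshold in edgeR (adjusted p = 0.0514). Values in U2OS were 144, 150 and 153 CPM under siCtrl and 149, 146 and 155 under siINTS11 (-0.02 ± 0.04, adjusted p = 0.651), with overlapping groups. Scaled by library totals alone it was at 0.09 in U2OS-AsiSI (adjusted p = 0.0366). AQR was called lower in U2OS-AsiSI, at -0.12, with DESeq2 (adjusted p = 0.0348), median-of-ratios scaling (0.037), no count filter (0.0461) and without siINTS11 replicate 1 (0.0259).

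DHX9, which unwinds RNA and DNA duplexes and hybrids (chromosome 1, 182839347 to 182887982, plus strand, 48.6 kb), was 325, 319 and 336 CPM in U2OS-AsiSI siCtrl and 312, 328 and 294 under siINTS11. U2OS libraries gave 319, 308 and 315 CPM under siCtrl and 307, 302 and 313 under siINTS11. The groups overlapped in both lines, and neither change passed (-0.07 ± 0.05, adjusted p = 0.217, and -0.06 ± 0.04, adjusted p = 0.186). By library totals alone DHX9 was called higher in both (0.12, adjusted p = 0.00467, and 0.14, adjusted p = 9.15e-05). Its antisense neighbour AL355999.1, which starts 214 bp inside the gene, had 13 to 35 reads a library. That neighbour rose in U2OS-AsiSI (0.87 ± 0.28, adjusted p = 0.00677), but without siINTS11 replicate 2 its change was 0.53 (adjusted p = 0.115). In U2OS it was at 0.48 ± 0.23 (adjusted p = 0.0691).

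DDX5, a DEAD-box helicase of RNA processing (chromosome 17, 64498254 to 64508199, minus strand, 9.9 kb), was 102, 96.7 and 109 CPM in U2OS-AsiSI siCtrl and 108, 122 and 107 under siINTS11. The groups overlapped, and siINTS11 replicate 2 was the highest of the 12 libraries. It was also the library of lowest depth (20704611 reads), and held 2762 DDX5 reads, where all libraries held 2734 to 3238. The test called the gene higher (0.13 ± 0.05, adjusted p = 0.0269). Without that library the change was 0.07 (adjusted p = 0.259), without siCtrl replicate 2 it was 0.09 (adjusted p = 0.201), and DESeq2 gave 0.11 (adjusted p = 0.114). The call was also lost with median-of-ratios scaling (0.11, adjusted p = 0.0756), thinned libraries (0.11, adjusted p = 0.0556) and no count filter (0.12, adjusted p = 0.0517). The U2OS libraries held 100, 91.5 and 96.4 CPM under siCtrl and 93.9, 94.4 and 92.5 under siINTS11 (-0.07 ± 0.04, adjusted p = 0.147), and by library totals alone its change there was 0.13 (adjusted p = 0.00265). MIR3064 and MIR5047, which lie inside the gene on its strand, were listed at 0.

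Read density differed among the R-loop genes with reads, and DDX5 had the highest, at 0.304 reads per unshared base on average. It fell in a class of 104 genes at 0.3 to 0.5 reads per base. There the counts rose by a median of 0.41 for each unit of log2 depth, where counts in proportion to depth would rise by 1. This is a median of the class, and whether density limited the counts of DDX5 itself was not tested. DHX9 (0.191) and TOP1 (0.103) fell in a class with a median of 0.84. RNASEH2C, THOC1 and AQR, at 0.037 to 0.09 reads per base, fell in a class with a median of 1.02, and RNASEH2B, at 0.014, in one with 1.10. RNASEH2A, at 0.008, had too few reads to be classed. The part of read density in the small changes of DDX5, DHX9 and TOP1 was not tested.

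TOP1, which relaxes the supercoils ahead of and behind the polymerase (chromosome 20, 41028822 to 41124487, plus strand, 95.7 kb), was 333, 325 and 323 CPM in U2OS-AsiSI siCtrl and 337, 323 and 318 under siINTS11. These overlapped, with a log2 fold change of 0.00 ± 0.04 (adjusted p = 0.985), but by library totals alone TOP1 was higher (0.19, adjusted p = 1.27e-05). Values in U2OS were 342, 342 and 357 CPM under siCtrl and 317, 327 and 334 under siINTS11. There the groups did not overlap and the gene fell by 0.12 ± 0.04 (adjusted p = 0.00932). The change was -0.10 without U2OS siINTS11 replicate 1 (adjusted p = 0.0688), -0.08 over genes averaging 50 reads or more (adjusted p = 0.0735), and 0.08 with library totals alone (adjusted p = 0.0176).

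On the other strand, PLCG1-AS1 begins beyond the 3′ end of TOP1 and runs into it. It had 26 to 87 reads a library and rose in both lines, by 0.97 ± 0.17 in U2OS-AsiSI (adjusted p = 6.52e-06) and by 1.37 ± 0.18 in U2OS (adjusted p = 1.75e-08). Of its 39985 bases, 26469 overlap TOP1. Its siINTS11 libraries were all above its siCtrl libraries in both lines.

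THOC1, a core subunit of the THO complex (chromosome 18, 214520 to 268050, minus strand, 53.5 kb), was 88.0, 88.9 and 86.2 CPM in U2OS-AsiSI siCtrl and 82.0, 81.4 and 79.8 under siINTS11. The groups did not overlap and the gene fell by 0.11 ± 0.04 (adjusted p = 0.0325). In U2OS it was 80.2, 84.6 and 85.5 CPM under siCtrl and 82.2, 79.8 and 80.5 under siINTS11, with overlap (-0.08 ± 0.04, adjusted p = 0.0969). The call in U2OS-AsiSI was lost without siCtrl replicate 1 or 2 and without siINTS11 replicate 2 or 3. The changes were then -0.11 to -0.10, with adjusted p of 0.0554 to 0.123. It was also lost with TMM from genes under 0.1 reads per base (-0.09, adjusted p = 0.0789). Over genes averaging 50 reads or more THOC1 was at -0.06 (adjusted p = 0.242). Under library totals alone the changes were 0.08 in U2OS-AsiSI (adjusted p = 0.0839) and 0.12 in U2OS (adjusted p = 0.00541).

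The other genes on the strand opposite the 9 did not move in one direction. RNASEH2B-AS1, which starts 1017 bp inside RNASEH2B, did not pass (-0.31 ± 0.17 in U2OS-AsiSI and -0.23 ± 0.17 in U2OS, adjusted p = 0.101 and 0.228). GUCY1B2, at the 3′ end of RNASEH2B, fell in both lines (-0.52 ± 0.10 and -0.36 ± 0.10, adjusted p = 6.33e-05 and 0.00188), although without U2OS siCtrl replicate 2 its change in U2OS was -0.24 (adjusted p = 0.058), and by library totals alone it was -0.16 (adjusted p = 0.171). USP14, which overlaps the 3′ end of THOC1 by 110 bases, also fell in both (-0.22 ± 0.05 and -0.17 ± 0.04, adjusted p = 0.000143 and 0.00035). CEP95, head to head with DDX5, fell in U2OS-AsiSI (-0.14 ± 0.04, adjusted p = 0.00712) and was at -0.06 ± 0.04 in U2OS. HOOK2, which covers all of RNASEH2A from the other strand, rose in U2OS-AsiSI (0.40 ± 0.08, adjusted p = 5.55e-05) and was at 0.14 ± 0.08 in U2OS (adjusted p = 0.0995), where library totals alone gave 0.34 (adjusted p = 0.000354).
By library totals alone CEP95 turned to 0.05 in U2OS-AsiSI and 0.14 in U2OS, and USP14 to -0.03 and 0.03. The rises of RNASEH1-AS1, AP000845.1 and PLCG1-AS1 held in 14 of 14 alternatives in each line.

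**Figure D4:**
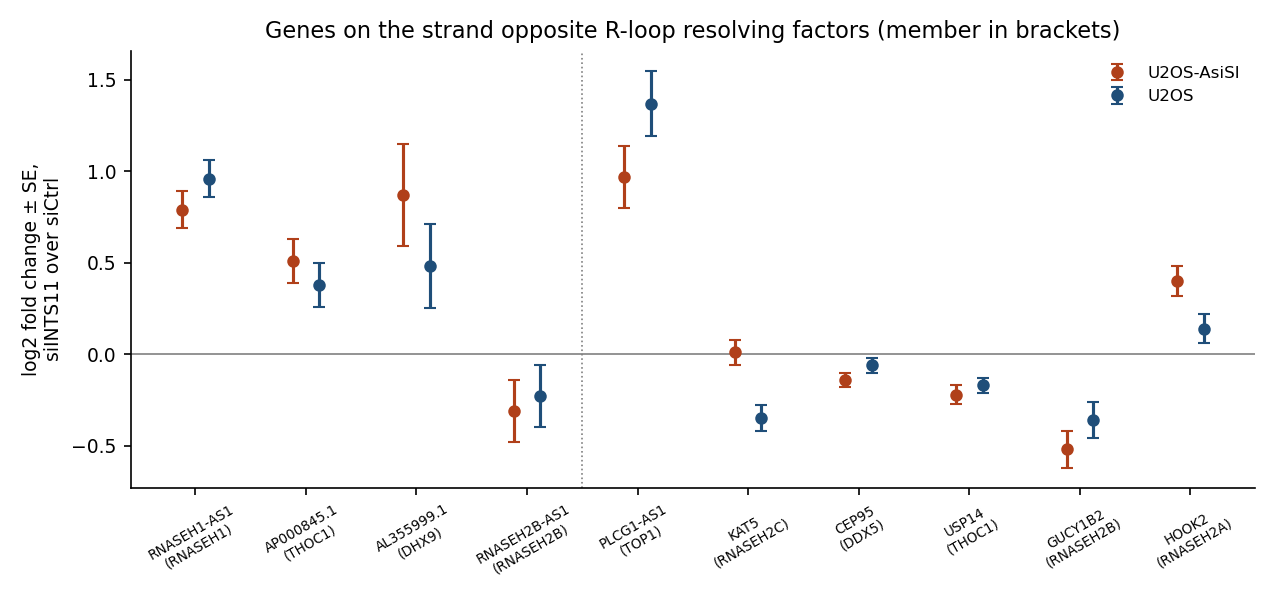
Log2 fold change (± SE) of genes on the strand opposite an R-loop gene, siINTS11 over siCtrl, in U2OS-AsiSI (red) and U2OS (blue), with the R-loop gene in brackets. Left of the dotted line are the partners that start within 1017 bp of the start of the R-loop gene. RNASEH1-AS1, AP000845.1 and PLCG1-AS1 lie above 0 in both lines, GUCY1B2 and USP14 below 0.

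Gene length went with the direction of change across protein-coding genes, and most of the 8 lay within the spread for genes of their own length. In U2OS-AsiSI the decile of genes with the shortest spans, where RNASEH2C falls, had a median log2 fold change of 0.21 (quartiles -0.01 and 0.43), and the decile numbered 8 by span, where RNASEH2B and TOP1 fall, had -0.21 (quartiles -0.42 and 0.05). RNASEH2C, at 0.39, and RNASEH2B, at -0.38, were each within those quartiles. So were 7 of the 8 genes in U2OS-AsiSI and 8 of 8 in U2OS. The exception was RNASEH2A, at -0.08 beside a lower quartile of -0.07, on at most 22 reads. AQR, among the longest, was near the upper quartile of its decile in both lines (-0.10 beside -0.04, and -0.02 beside -0.01). The part of length in these changes was not tested.

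**Figure D5:**
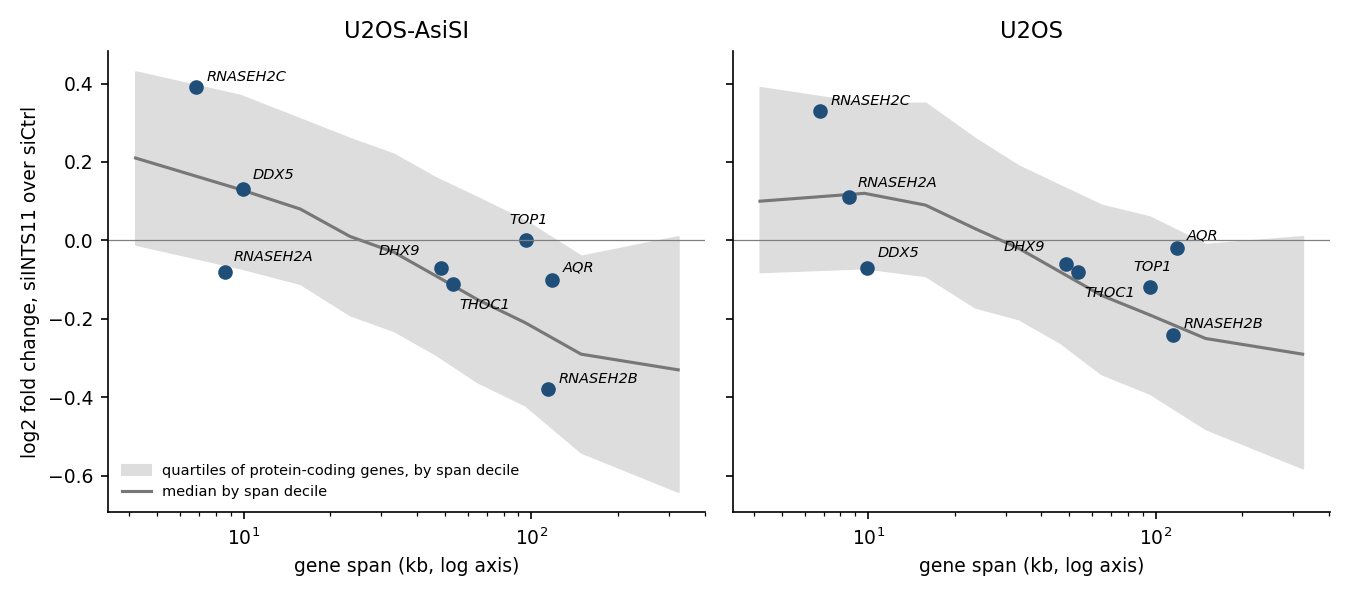
Log2 fold change of the 8 genes (points) against gene span in kb (log axis), for U2OS-AsiSI (left) and U2OS (right). The line is the median and the grey band the quartiles of protein-coding genes in deciles of span. RNASEH2C and RNASEH2B sit at opposite ends, both within the band.

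None of the 8 genes with reads was found to respond differently in the 2 lines. The difference of the log2 fold changes, U2OS-AsiSI minus U2OS, passed for 0 of 8 in edgeR and 0 of 8 in DESeq2, where 3.87% of 21521 genes passed in edgeR (0.762% higher and 3.10% lower). At an unadjusted edgeR p under 0.05 there were 2, RNASEH2B (-0.17 ± 0.06, adjusted p = 0.119) and DDX5 (0.16 ± 0.07, adjusted p = 0.185). Among the others the difference ran from -0.22 for RNASEH2A to 0.08 for TOP1. RNASEH2C, called in each line, differed by 0.03 ± 0.10.

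Under siCtrl the 2 lines differed in RNASEH2C. It was 18.8 to 21.8 CPM in U2OS-AsiSI and 15.3 to 16.3 in U2OS, a log2 difference of 0.38 ± 0.07 (adjusted p = 4.82e-05) about as large as that made by siINTS11 within a line. That was 1 of 8 called, where 34.9% of 19935 genes were (17.8% higher and 17.2% lower), and it held in 14 of 14 alternatives. TOP1 was lower in U2OS-AsiSI and THOC1 higher without overlap of the groups, but neither passed. DDX5, at 0.10, passed without U2OS siCtrl replicate 1 or without U2OS-AsiSI siCtrl replicate 2 (0.14 in both, adjusted p = 0.0265 and 0.0422). With library totals alone 67.4% of all calls in this comparison were higher, against 50.9%. Then 4 of the 8 genes passed, where 7297 of 19935 genes did.

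A wider set of 39 genes linked to R-loops placed the 9 among their partners. In U2OS-AsiSI 27 of 37 tested passed (68.0% of all genes did), 12 higher and 15 lower, with a median of -0.04. In U2OS 25 of 36 passed (66.9% of all genes), 10 higher and 15 lower, with a median of -0.08. With library totals alone the split was 21 higher and 8 lower in U2OS-AsiSI and 17 higher and 7 lower in U2OS. Of the 39, 5 had less than 20% of their span unshared, and DDX39B, an export helicase with none unshared, was listed at 0.

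Among helicases 9 of 14 passed in U2OS-AsiSI, 4 higher and 5 lower, where 68.0% of all genes passed (35.4% higher and 32.6% lower). WRN, the Werner syndrome helicase, fell by 0.41 ± 0.05 (adjusted p = 7.9e-09), and RECQL5, a helicase that travels with RNA polymerase II, rose by 0.38 ± 0.05 (adjusted p = 1.83e-07). In U2OS they were at -0.26 ± 0.04 and 0.32 ± 0.05. Both calls stood in each alternative run, except that WRN in U2OS was at -0.06 by library totals alone (adjusted p = 0.141).

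Beside TOP1, 5 of 6 topoisomerase genes and partners passed in U2OS-AsiSI, 2 higher and 3 lower, and 6 of 6 in U2OS. Of all genes 68.0% passed in U2OS-AsiSI and 66.9% in U2OS. TDRD3, the Tudor-domain partner of TOP3B, fell by 0.67 ± 0.05 (adjusted p = 6.02e-14) and by 0.55 ± 0.04 in U2OS. TOP2B fell by 0.43 ± 0.05 (adjusted p = 4.73e-09) and by 0.42 ± 0.04. Against the direction of these, TOP1MT, the mitochondrial enzyme, and TOP3B rose (0.16 ± 0.05 and 0.24 ± 0.05 in U2OS-AsiSI). In U2OS TOP3B was near the threshold (0.09 ± 0.04, adjusted p = 0.0492). TOP3A, on 12 to 28 reads a library, passed in U2OS (-0.76 ± 0.28, adjusted p = 0.0172) and not in U2OS-AsiSI (-0.08 ± 0.24, adjusted p = 0.79).

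Of 10 partners of THOC1 in the THO complex and in mRNA export, 7 passed in U2OS-AsiSI, 2 higher and 5 lower. Of all genes 68.0% passed there, 35.4% higher and 32.6% lower. THOC6, another THO subunit, rose by 1.14 ± 0.07 (adjusted p = 1.63e-14) and by 0.69 ± 0.09 in U2OS (adjusted p = 3.16e-09). THOC3 fell by 0.57 ± 0.08 (adjusted p = 3.43e-07) and by 0.23 ± 0.08 in U2OS (adjusted p = 0.0134), where its call was lost without siCtrl replicate 2 (-0.18) or 3 (-0.16) and by library totals alone (-0.03, adjusted p = 0.793). MCM3AP was the other gene that rose (0.18 ± 0.05, adjusted p = 0.00106). The THO subunit genes thus did not move together: THOC1 at -0.11 lay between THOC3 and THOC6, as did THOC2 at -0.33, THOC5 at -0.17 and THOC7 at -0.14, which were picked for naming after their values were seen.

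Partners of AQR in the intron-binding complex passed in 3 of 3 cases in U2OS-AsiSI, all higher (35.4% of all genes were called higher), and in 1 of 3 in U2OS, also higher (34.5%). The difference between the lines passed for 0 of the 3 in edgeR and in DESeq2, with XAB2 at an unadjusted p under 0.05 (0.33 ± 0.12, adjusted p = 0.107). XAB2 rose in U2OS-AsiSI (0.23 ± 0.08, adjusted p = 0.0136) and was at -0.13 ± 0.08 in U2OS (adjusted p = 0.157). Without U2OS-AsiSI siCtrl replicate 1 its change was 0.16 (adjusted p = 0.103), and without siINTS11 replicate 3 it was 0.19 (adjusted p = 0.0888). PPIE rose in both (0.14 ± 0.05, adjusted p = 0.0126, and 0.22 ± 0.04, adjusted p = 4.14e-05), but in U2OS-AsiSI it was at 0.12 without siCtrl replicate 1 (adjusted p = 0.0605) or without siINTS11 replicate 3 (adjusted p = 0.0671).

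Among 4 RNA processing and decay genes, 3 passed in U2OS-AsiSI (68.0% of all genes did) and 1 of 3 in U2OS (66.9%). SAMHD1, a nucleotide hydrolase, fell in both lines (-0.40 ± 0.07, adjusted p = 1.6e-05, and -0.55 ± 0.06, adjusted p = 2.56e-10). XRN2, the exonuclease of transcription termination, fell in U2OS-AsiSI (-0.19 ± 0.05, adjusted p = 0.000541) and was at -0.09 ± 0.04 in U2OS (adjusted p = 0.0531). In U2OS it was called lower without siINTS11 replicate 3 (-0.12, adjusted p = 0.00761) and with median-of-ratios scaling (-0.10, adjusted p = 0.0474). DESeq2 (-0.10, adjusted p = 0.0406) and the replicate block (-0.09, adjusted p = 0.016) also called it lower there. On library totals alone its values were 0.00 and 0.11. SRSF1, the splicing factor, was called higher in U2OS-AsiSI (1.38 ± 0.33, adjusted p = 0.000586), on 5 to 22 reads a library from 100 unshared bases.

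Over the 12 libraries, which share their 4 groups and TMM factors, the gene whose log2 CPM ran most like that of RNASEH2B was TTC8 (Pearson r = 0.99), and for RNASEH2C it was TMEM223 (r = 0.99), among 13557 genes with a mean of at least 100 reads. For the other members the closest were SNHG1 for DDX5 (0.98), CARNMT1 for THOC1 (0.95), OCIAD1 for DHX9 (0.94), MRPS35 for AQR (0.93) and SLC35D1 for TOP1 (0.92). Spearman's rho named another gene for each of the 7. Among the R-loop genes themselves the highest r was 0.78, between RNASEH2B and THOC1, and RNASEH2C ran closest to DDX5 (0.69).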

How the data were processed

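TT-seq libraries from U2OS and U2OS-AsiSI cells under siCtrl or siINTS11 were grouped and numbered by sample titles. The authors deposited raw read counts per gene over the whole gene span, with columns as featureCounts writes them, per the file headers. Trimmomatic 0.36, STAR 2.7, featureCounts, deepTools and build hg38 are named in the submitters' processing notes, and the strand setting, duplicate handling and use of the yeast spike-in are not given in the sources used here. Gene identifiers and types were matched by symbol to GENCODE for 55454 of 60583 genes (91.5%).

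The test was that of edgeR 4.0.16 under R 4.3.3 (filterByExpr, TMM, glmQLFit with robust estimation, glmQLFTest, two-sided). Adjustment was by Benjamini-Hochberg over all genes tested, with a threshold of 0.05. Each SE is the size of the log2 fold change divided by the root of F. The difference between lines was the interaction over all 12 libraries, and the other comparisons used 6. CPM used TMM factors from all 12 libraries, and levels were divided by the bases that no other gene covers on the same strand. The change of counts with depth was a slope of log2 counts on log2 library totals within groups, for genes averaging 50 reads or more. Alternatives were median-of-ratios scaling, library totals alone, TMM from genes under 0.1 reads per base, all genes without a count filter, genes averaging 50 reads or more, the replicate block, DESeq2 1.42.0, thinning to the smallest total and leaving out each library. The test was checked on simulated data.

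The members and lists were chosen with earlier results of these data known. Genes named beside the members were those tied to a member by name or place, and per role up to 2 of the smallest adjusted p in U2OS-AsiSI and any called against the rest. The most alike gene had the highest Pearson r. No tool for molecular identifiers is named in the processing notes, and SEs cover the spread between libraries only. Protein sequences and the genome sequence were not used here. Figures were drawn with matplotlib 3.10.9.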

Additional observations from a re-analysis of the deposited data

Results flagged for a closer look

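Of 56 genes among the R-loop factors, their partners and the genes tied to them by place, 2 passed the interaction test of edgeR. That test asks whether the response to siINTS11 differs between the 2 lines. Neither gene is one of the 9, and 3.87% of all 21521 genes tested passed. THOC6 rose more in U2OS-AsiSI than in U2OS (1.14 against 0.69, difference 0.42 ± 0.12, adjusted p = 0.0401). The helicase DHX36, named after its values were seen, fell more in U2OS-AsiSI (-0.31 against -0.11, difference -0.23 ± 0.07, adjusted p = 0.048). Without each library in turn the difference stayed between 0.37 and 0.53 for THOC6 and between -0.26 and -0.17 for DHX36, but the call was lost in 8 and 9 of 12 such fits. It was also lost in other settings, for THOC6 with libraries thinned to the smallest total (0.33, adjusted p = 0.244) and for DHX36 in every alternative that kept all libraries, such as median-of-ratios scaling (-0.20, adjusted p = 0.153) and DESeq2 (-0.20, adjusted p = 0.159), except the replicate block and the thinned libraries.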

How the results depend on the processing

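The calls of RNASEH2C and, except in U2OS with library totals alone, of RNASEH2B held in every setting run, while those of DDX5, THOC1 and TOP1 did not. Depth and unshared span limit RNASEH2A, and RNASEH1 could not be read.

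With library totals alone, these log2 fold changes changed sign. In U2OS-AsiSI they became 0.11 for RNASEH2A, 0.09 for AQR, 0.12 for DHX9, 0.08 for THOC1, 0.05 for CEP95 and 0.06 for INTS11. In U2OS they became 0.18 for AQR, 0.14 for DHX9, 0.13 for DDX5, 0.08 for TOP1, 0.12 for THOC1, 0.07 for XAB2, 0.11 for XRN2, 0.10 for AC108488.2, 0.14 for CEP95 and 0.03 for USP14. The same setting gave 6 called members in U2OS (14767 of 20687 genes passed) and 4 between the lines under siCtrl (7297 of 19935). By its construction it drops the TMM factors, and the median of all genes was then 0.22 for siINTS11 in each line and 0.07 between the lines under siCtrl.

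Other settings changed the sign of these values, none of them called. KAT5 in U2OS-AsiSI was at -0.01 with median-of-ratios scaling, with no count filter and with DESeq2. AQR in U2OS was at 0.02 over genes averaging 50 reads or more. The difference between lines for DHX9 was 0.01 with no count filter and 0.03 over genes averaging 50 reads or more. With libraries thinned to the smallest total, RNASEH2A was at 0.12 in U2OS-AsiSI and at 0.08 (from -0.22) for the difference between lines. In that setting RNASEH2B-AS1 in U2OS was at 0.06 (from -0.23). Between the lines under siCtrl 2 of 7 members were then called, where 6111 of 18737 genes passed. The cause was not tested.

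Leaving out 1 library at a time gave 2 to 5 called members in U2OS-AsiSI and 2 to 4 in U2OS. It gave 0 for the difference between lines and 1 to 2 between the lines under siCtrl. Over all genes these fits called 12705 to 13777 of 20766 to 20893 in U2OS-AsiSI and 12884 to 13916 of 20994 to 21181 in U2OS. They called 286 to 946 of 21838 to 21974 for the difference between lines and 5341 to 7016 of 20174 to 20322 under siCtrl. In U2OS-AsiSI RNASEH2A then ran from -0.27 to 0.09 and KAT5 from -0.04 to 0.09. In U2OS RNASEH2A ran from -0.21 to 0.28, AQR from -0.05 to 0.01 and AC108488.2 from -0.17 to 0.08. The difference between lines ran from -0.41 to 0.10 for RNASEH2A, -0.04 to 0.10 for RNASEH2C and -0.07 to 0.02 for DHX9, and under siCtrl RNASEH2A ran from -0.08 to 0.29.

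Over all genes, 832 passed for the difference between lines, against 447 with median-of-ratios scaling, 423 with DESeq2, 544 with thinned libraries and 286 to 946 with 1 library left out. Samples with the same replicate number showed little shared deviation (r = 0.14, 0.01 and 0.02 in U2OS-AsiSI and -0.03, -0.04 and 0.03 in U2OS). With 3 libraries a group, these values cannot decide whether equal numbers mark pairs. With the replicate block 5 members were called in U2OS-AsiSI (14172 of 20441 genes passed) and 3 in U2OS (13700 of 20687). For the difference between lines 0 members were called (1281 of 21521 genes passed), and under siCtrl 1 was (6421 of 19935).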
